A study of Mus musculus with 3 samples.

Results

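Serum response factor (Srf) and contractile actin genes of its program were followed here in NIH3T3 cells, an established mouse fibroblast line. They are the 10 genes Srf, Acta2, Actg2, Tagln, Tagln2, Cnn1, Cnn2, Myl9, Tpm1 and Tpm2, of 18193 genes with a probe set that the platform annotation pairs with exactly 1 gene symbol. All 10 were found, with 21 probe sets, which are small groups of array probes read together as a single signal. The study screened short hairpin RNAs (shRNAs) for resistance to oxidative stress. Its 3 single-colour arrays hold 2 samples of cells with the empty vector, named empty vector 1 and empty vector 2, and 1 sample of cells with an shRNA against retinol saturase (RetSat shRNA). The labels give calf serum medium and no treatment for the empty-vector cells. For the RetSat shRNA cells they give neither medium nor treatment, and describe them as highly resistant to tert-butyl hydroperoxide, a chemical oxidant. The title of the RetSat shRNA sample carries the number 2, like that of empty vector 2, and what the number stands for is not stated. No label says whether the samples came from separate cultures or clones, so p-values reflect the spread of these samples alone, and that spread may be technical.

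Srf is a transcription factor that binds the CArG box, a short motif with CC at its start, GG at its end and A or T bases between. Its coactivators of the myocardin family (MRTFs) are held in the cytoplasm by actin monomers and enter the nucleus when actin assembles into filaments. There they switch on genes of the actin cytoskeleton. A second set of partners, the ternary complex factors such as Elk1, links Srf to growth factor signals and to immediate early genes. In fibroblasts, smooth muscle actin (Acta2) and its companions mark the contractile, myofibroblast-like state, and the amount of serum and the spreading of the cells are known to affect them.

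The upstream sequences of 8 members were in the RefSeq promoter table (build GRCm38.p6), and those of Tagln and Actg2 were not used here. In the 250 bases before the annotated start, read on both strands since the motif is its own reverse complement, 3 of the 8 held an exact CArG box, compared with 1.47% of 32851 promoters. With 1 base of the A and T stretch allowed to differ, Acta2 joined them, which made 4 of 8, compared with 8.59% of all promoters. The members were chosen as Srf and genes of its program, so their higher shares are no independent evidence that Srf acts on them. Srf, Cnn2 and Acta2 are shown because their signals, given further on, were all lower on empty vector 1 than on the other arrays. This choice leaves out Myl9, which held an exact box but read highest on empty vector 1, though dim. Tagln2 and Cnn1 held no box but also read lowest there, Tagln2 at its brightest probe set and Cnn1 at a dim signal. Capitals mark the boxes, which are exact in Srf and Cnn2 and 1 base off in Acta2. The stretches are chr17:46556163-46556412 (minus strand) for Srf, chr10:79988350-79988599 (plus strand) for Cnn2 and chr19:34255374-34255623 (minus strand) for Acta2, each written 5′ to 3′ and ending at the base before the start.

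Srf: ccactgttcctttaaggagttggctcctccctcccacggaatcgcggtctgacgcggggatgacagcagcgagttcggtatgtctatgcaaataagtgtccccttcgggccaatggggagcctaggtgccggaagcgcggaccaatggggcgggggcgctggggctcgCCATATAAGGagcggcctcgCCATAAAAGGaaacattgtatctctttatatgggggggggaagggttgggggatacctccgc

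Cnn2: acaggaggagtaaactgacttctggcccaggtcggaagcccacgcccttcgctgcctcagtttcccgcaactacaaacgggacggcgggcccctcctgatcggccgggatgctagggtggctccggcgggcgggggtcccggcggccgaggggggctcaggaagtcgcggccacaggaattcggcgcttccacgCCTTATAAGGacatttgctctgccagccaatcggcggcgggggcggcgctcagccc

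Acta2: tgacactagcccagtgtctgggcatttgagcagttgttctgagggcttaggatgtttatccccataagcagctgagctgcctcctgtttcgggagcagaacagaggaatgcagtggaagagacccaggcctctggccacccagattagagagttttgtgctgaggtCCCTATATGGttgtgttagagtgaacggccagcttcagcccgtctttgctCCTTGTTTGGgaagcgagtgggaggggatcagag

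The boxes of Srf begin 82 and 62 bases upstream and do not overlap, and that of Cnn2 begins 56 bases upstream. Those of Acta2 begin 84 and 34 bases upstream. Myl9 held an exact box 161 bases and an inexact one 99 bases upstream. No match was found in these windows for Cnn1, Tagln2, Tpm1 or Tpm2. A match describes the letters only.

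The target gene was low on the RetSat shRNA array. The brighter Retsat probe set read 416 on empty vector 1, 496 on empty vector 2 and 69.5 on RetSat shRNA, the last being 15.2% of the empty-vector mean. Log2 signals of the 2 empty-vector arrays differed with an SD of 0.739 across the 10843 genes tested, against 0.336 between empty vector 2 and RetSat shRNA. Over the same genes the median difference from empty vector 1 was 0.14 log2 for empty vector 2 and also 0.14 for RetSat shRNA, and it was 0 between these 2 arrays. As a measure of RNA quality, the Actb control probes gave 3′ over 5′ signal ratios of 1.53 on both empty-vector arrays and 1.65 with the shRNA. The Gapdh ratios were 0.841 on empty vector 1 and 0.931 on each of the other arrays. The part of RNA quality in the results was not tested.

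Of the 8 contractile genes tested, Acta2, Cnn2, Tagln, Tagln2 and Srf read higher on empty vector 2 and RetSat shRNA than on empty vector 1, while Actg2, Tpm1 and Tpm2 were nearly level on the 3 arrays at their brightest probe sets. For these first 5 of the 8 the controls lay further apart than RetSat shRNA and empty vector 2, but so did they for 75.4% of all genes tested, so that count is no result about the contractile genes. Fewer cells of a type and less RNA per cell cannot be told apart in such bulk samples. The calponin Cnn1 and the myosin light chain Myl9 were dim throughout. A gene is described below by its brightest probe set unless another is named. Its log2 differences are taken after adding an offset of 10.2 signal units, which understates the change of dim genes. Signals are in the deposited linear units, and levels of different probe sets are not compared. Where 3 signals follow one another, the first is from empty vector 1, the next from empty vector 2 and the last from RetSat shRNA.

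**Figure D1:**
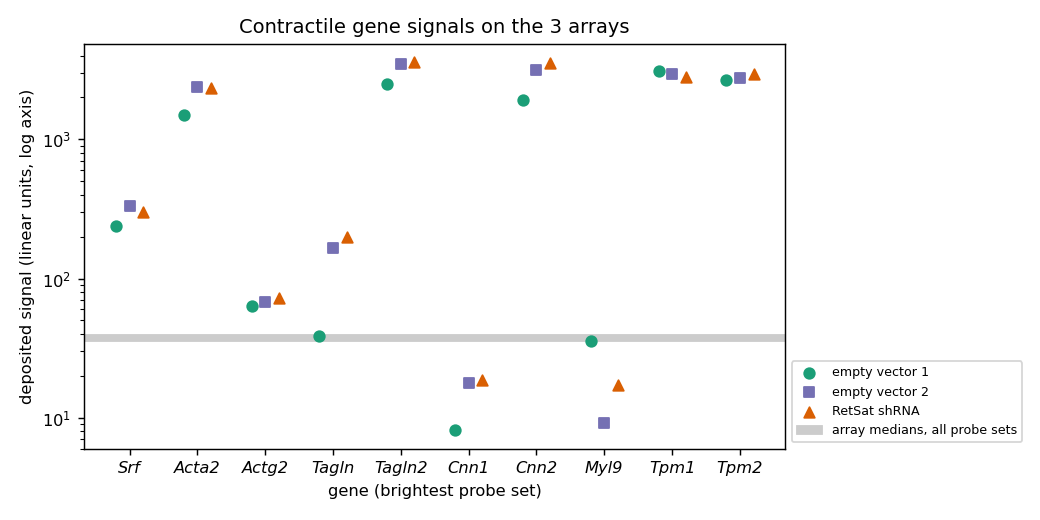
Deposited signal (log axis) of the brightest probe set of each of the 10 genes on empty vector 1 (circles), empty vector 2 (squares) and RetSat shRNA (triangles), 1 point per array, with a grey band over the array medians of all probe sets (35.7 to 39.4). For Srf, Acta2, Tagln, Tagln2 and Cnn2 the circle lies below both other points, and Cnn1 and Myl9 lie below the band's upper edge on every array.

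Srf itself read 238 on empty vector 1, 329.9 on empty vector 2 and 299 on RetSat shRNA, so the shRNA array lay between the controls. Its second probe set read 145, 189 and 207, with the shRNA array above both. The name of the brighter one (1418255_s_at) carries the suffix for probes shared by several transcripts. The log2 difference of RetSat shRNA from the empty-vector mean was 0.09 (SE 0.51) for the brighter probe set. With empty vector 1 as the control it came to 0.32, and with empty vector 2 to -0.14, so its sign depended on which control was used.

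Of the smooth muscle actins, Acta2, the actin of contractile stress fibres, read 1489 on empty vector 1, 2391 on empty vector 2 and 2332 on RetSat shRNA. The array with the shRNA and empty vector 2 were nearly equal, and empty vector 1 was the low one. The difference was 0.30 (SE 0.53; empty-vector signal 1940 ± 638, SD, n = 2). It was -0.04 against empty vector 2 alone, and -0.19 from the mean over all 3 of its probe sets. Actg2, the enteric smooth muscle actin, read 63.2, 67.5 and 72.5, a log2 difference of 0.13 (SE 0.50). The name of the Acta2 probe set (1416454_s_at) carries the suffix for probes shared by several transcripts, so signal from other, closely similar actins cannot be told apart from that of Acta2.

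Tagln, also called SM22, is an actin-binding protein and an early marker of smooth muscle. It read 38.4 on empty vector 1, 166 on empty vector 2 and 198 on RetSat shRNA. Empty vector 1 lay just under the median of its array (39.4), while the other arrays stood well above theirs. The ratio of signals was 4.32 between the controls, 5.16 between RetSat shRNA and empty vector 1, and 1.19 between RetSat shRNA and empty vector 2. On the log2 scale these were 1.86, 2.10 and 0.24. Both differences from empty vector 1 rest on that dim signal, which is not known to stand above background, so their sizes are uncertain. In limma, Tagln differed from the empty-vector mean by 1.17 (SE 0.70), with an adjusted p of 0.9999 (unadjusted p = 0.126).

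Tagln2, a relative of Tagln found in many cell types, read 2491 on empty vector 1, 3489 on empty vector 2 and 3573 with the shRNA. Its second probe set (1439407_x_at), named for possible cross-hybridisation, read 938, 1108 and 1558. The third, named likewise, was dim at 17.7, 4.6 and 16.8. Both brighter probe sets thus had their lowest signal on empty vector 1, but they placed RetSat shRNA differently from empty vector 2, at 0.03 and 0.49 log2. The limma difference was 0.28 (SE 0.52).

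Calponins bind actin filaments and restrain myosin. Cnn2, the calponin of non-muscle cells, read 1919.9 on empty vector 1, 3176 on empty vector 2 and 3539 on RetSat shRNA, with a log2 difference of 0.52 (SE 0.54). Its gap between the controls, 0.72, was larger than its gap between RetSat shRNA and empty vector 2, 0.16. Cnn1, the smooth muscle calponin, read 8.1, 17.7 and 18.7, below the array median on every array. Myl9, a regulatory light chain of myosin, read 35.4, 9.1 and 17.2, also below it. Both stayed under the level filter and were not tested.

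Tropomyosins lie along the actin filament, and each gene gives several isoforms by alternative splicing. For Tpm1 the probe sets disagreed. The brightest (1423721_at) read 3119, 2971.5 and 2826, whereas 1423049_a_at read 2581 on empty vector 1, 1495 on empty vector 2 and 1341 on RetSat shRNA. The log2 difference between the controls was thus -0.07 in the first and -0.78 in the second. A further probe set read 240.2, 282 and 199.6, and the last was dim at 0.8, 21.1 and 19.6. Which Tpm1 transcripts each probe set detects was not examined.

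Tpm2 was level in its brightest probe sets, at 2689, 2752 and 2959.8 and at 1078, 1089 and 1067. The probe set named for possible cross-hybridisation (1449577_x_at) read 425, 352 and 366, and 1419739_at read 118, 64.1 and 119.5, with empty vector 2 as the low array. The differences from the empty-vector mean were -0.11 (SE 0.50) for Tpm1 and 0.12 (SE 0.50) for Tpm2.

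**Figure D2:**
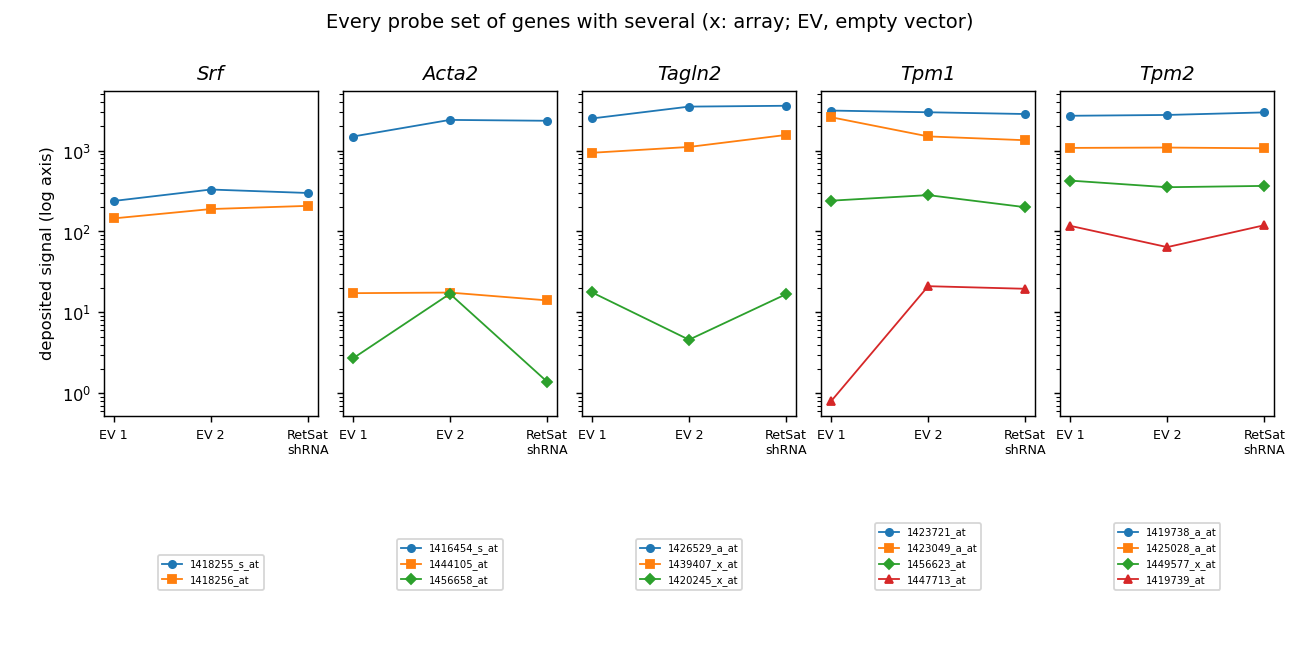
Deposited signal (log axis) on each array for every probe set of the 5 genes with several, 1 line per probe set and 1 point per array; lines join the arrays as a guide for the eye. The Srf probe sets and both brighter Tagln2 probe sets are lowest on empty vector 1, while the second Tpm1 probe set is highest there (2581 against 1495 and 1341).

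Setting RetSat shRNA against both controls, limma passed none of the 8 members tested (adjusted p of 0.05), and neither did it pass any of the 10843 genes (0%). No member had an unadjusted p under 0.05, against 108 of all genes. The model has 1 residual degree of freedom, from the controls, and assumes that the single RetSat shRNA array varies like them. Each SE also draws on a variance shared across all genes (9.5 prior degrees of freedom), so it is not that gene's control spread alone. The 95% intervals were wide, from -0.87 to 1.48 for Acta2 and from -0.39 to 2.73 for Tagln, so a level 2-fold higher lies inside both. A miss of the threshold therefore does not show that the genes were alike.

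A rule of size gave the same count of members. None was at least 2-fold higher or lower on RetSat shRNA than on both controls, while 0.0922% of all genes tested were higher (10) and 0.498% lower (54). With the arrays centred on their medians these were 20 and 41 genes, and after quantile normalization 24 and 43. Without a size limit, 5 of the 8 members read above both controls (Actg2, Tagln, Tagln2, Cnn2 and Tpm2), against 34.4% of all genes. Only Tpm1 read below both, against 25.4%. With centred arrays 6 members and 4926 genes were above both, and 1 member and 1980 genes below, compared with 3732 and 2753 genes in the uncentred data. The margins over the nearer control were small, at 0.03 to 0.24 log2 for the 5.

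Between the controls, Tagln was the 1 member of 8 at least 2-fold higher on empty vector 2, where 3.41% of all genes were (370 genes), and no member was at least 2-fold lower, where 9.32% were (1011 genes). After quantile normalization 641 genes were higher and 897 lower, and again 1 member was higher. RetSat shRNA against empty vector 1 gave the same picture, with Tagln at least 2-fold higher (3.45% of all genes, 374) and no member lower (10.2%, 1104), and these differences share empty vector 1. With centred arrays, 583 and 948 genes passed in that comparison, and after quantile normalization 705 and 914. Against empty vector 2, no member was 2-fold higher (0.719%, 78 genes) or lower (1.01%, 110 genes). The latter split was 110 and 86 with centred arrays and 115 and 108 after quantile normalization.

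Relative to the median gene, the differences of empty vector 2 from empty vector 1 were 1.72 for Tagln, 0.59 for Cnn2, 0.54 for Acta2, 0.35 for Tagln2 and 0.32 for Srf. They were -0.05 for Actg2, -0.10 for Tpm2 and -0.21 for Tpm1. The first 5 also lay above the median gene with centred arrays and after quantile normalization, where Actg2 joined them. With a gene taken as the mean of its probe sets, Tagln2 left this group, at -0.06, and Tpm1 entered it, at 0.22, where the median gene was at 0.08. Each of these 2 genes has a dim probe set under the level filter, at -0.91 for Tagln2 and 1.51 for Tpm1. The other Tagln2 probe sets were at 0.48 and 0.24, and the other Tpm1 probe sets at -0.07, -0.78 and 0.22. Taken over the 8 members, the median difference was 0.47 between the controls, against 0.14 over all genes. With a gene as the mean of its probe sets it was 0.31 (all genes, 0.08), and with every probe set on its own 0.22 (all probe sets, 0.06). For the brightest probe sets it was 0.06 between RetSat shRNA and empty vector 2, against 0.

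**Figure D3:**
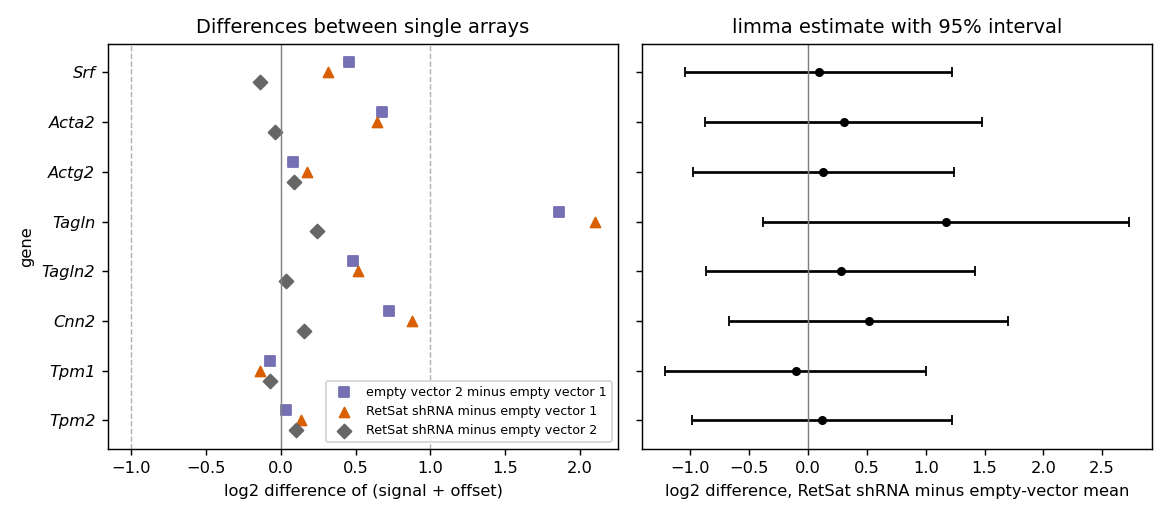
Left, log2 differences of signal + offset between single arrays for the 8 tested genes (squares, empty vector 2 minus empty vector 1; triangles and diamonds, RetSat shRNA minus empty vector 1 and minus empty vector 2), with dashed lines at a 2-fold difference; right, limma's estimate of RetSat shRNA minus the empty-vector mean with its 95% interval. Squares and triangles both lie on the positive side for Tagln (1.86 and 2.10), diamonds run from -0.14 to 0.24, and all 8 intervals span 0.

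Of 13 tested cofactors and upstream signalling genes of Srf, 9 lay above the median gene in the difference between the controls. The list's median was 0.33 against 0.14 over all genes. By the 2-fold measure 0 genes were higher and 1 was lower on empty vector 2, where 3.41% and 9.32% of all genes were. The list held 0 limma calls. Mrtfa, a coactivator of Srf, read 319.6 on empty vector 1, 491 on empty vector 2 and 508 on RetSat shRNA, and Mrtfb read 748, 702 and 705; both were named for their role, outside the naming rule. Myocd, the coactivator of the smooth muscle lineage, was under the array median on every array, at 13.7, 8.2 and 22.5.

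Actin regulators made up most of the genes named from that list. The filament-severing cofilin Cfl1 read 12628, 15756 and 17344, the monomer-binding profilin Pfn1 8107, 10189 and 10716, and the GTPase Rhoa 2680.3, 3414 and 3358. All 3 were lowest on empty vector 1. Limk1, a kinase that inactivates cofilin, read 216, 415 and 368. Elk1, a ternary complex factor, read 69.4, 87.9 and 152, which put it at 0.73 log2 above empty vector 2 on the shRNA array.

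Other cytoskeletal genes linked to MRTF and Srf lay to both sides, much like genes at large. Of 30 tested, 14 lay above the median gene between the controls, with a median of 0.11 against 0.14 over all genes. By the 2-fold measure 2 were higher and 3 lower on empty vector 2, where 3.41% and 9.32% of all genes were. Such small counts near those shares are no result about the list. None passed limma. The cytoplasmic actins were close to level, with Actb at 14353, 14953 and 16742 and Actg1 at 13487, 14154 and 14719. The myosin light chain Myl12a read 7014, 9260.2 and 10155. The widest ranges belonged to genes highest on empty vector 1. The non-muscle myosin heavy chain Myh10 read 3097, 705 and 595, Filip1l read 864, 196 and 198, and the focal adhesion protein Fermt2 read 891, 369 and 368. The myosin heavy chain Myh11 (18.4, 8.1 and 20.7) and the leiomodin Lmod1 (2.8, 6.2 and 6.7), late smooth muscle genes, were near the floor. Smtn (192.5, 312 and 244) and Mylk (153, 207 and 256) of the same list were above the array median on every array. All of these were also named for their role.

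Immediate early genes, the targets Srf shares with the ternary complex factors, showed 9 of 12 tested above both controls on RetSat shRNA and 1 below both (34.4% and 25.4% of all genes), with 0 limma calls. Their median was 0.25 from empty vector 1 to empty vector 2 and 0.18 from empty vector 2 to RetSat shRNA. Klf4, a zinc-finger factor, read 1249, 2495 and 2805, and the MAP kinase phosphatase Dusp1 read 1269, 2428 and 2545. Junb, a subunit of AP-1, read 416, 626 and 744. Ier3 read 2517, 3004 and 3337, and the survival factor Mcl1 2005, 2375 and 2696. All 5 were lowest on empty vector 1 and highest on RetSat shRNA, as were Nr4a1 and Btg2. None of the other tested genes of the list had this order. Fos read 192, 139.9 and 174.3 and Egr2 121.1, 77.1 and 71.9, both highest on empty vector 1. Egr1 read 1786, 1634 and 1958 and Ier2 638, 623 and 735, both lowest on empty vector 2. Egr3 read 82.2, 115.1 and 82.9, highest on empty vector 2.

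**Figure D4:**
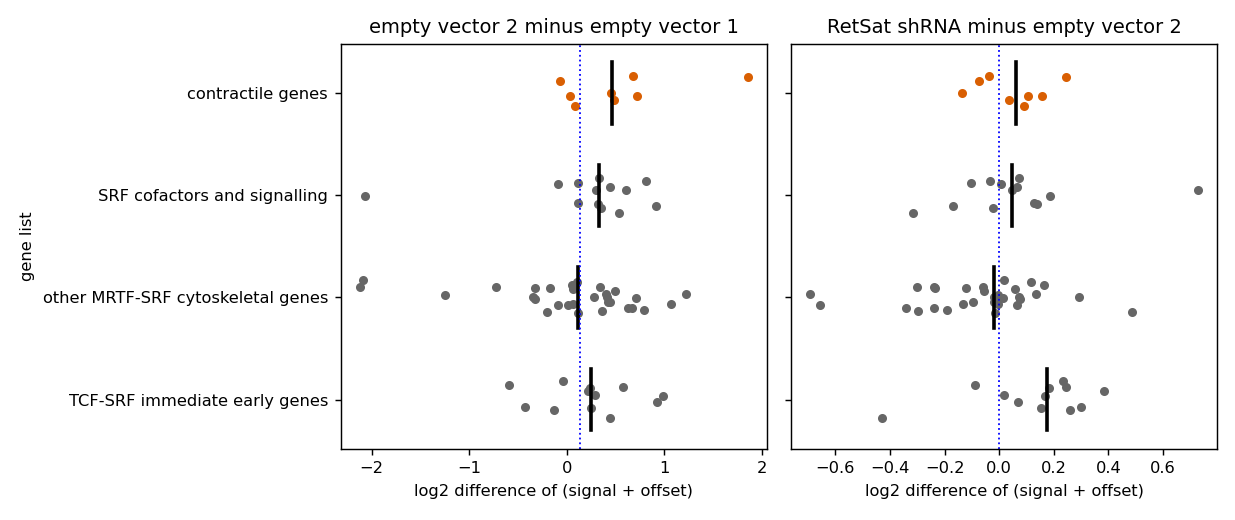
Log2 difference of signal + offset for each tested gene (1 point per gene) of the contractile genes and 3 further Srf-related lists, for empty vector 2 minus empty vector 1 (left) and RetSat shRNA minus empty vector 2 (right, on a narrower axis); black bars are list medians and the dotted line is the median of all 10843 genes. Contractile genes have a median of 0.47 on the left and 0.06 on the right, and the other cytoskeletal genes spread to both sides.

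The cells carried fibroblast transcripts. All 16 fibroblast markers were above the median signal on each array, and their summed signal was 99526 on empty vector 1, 93914 on empty vector 2 and 96093 on RetSat shRNA. Vim read 18225, 15264 and 14642, S100a4 16649, 18354 and 19516, and the collagen Col1a2 13012, 13247 and 14057. Those with the widest ranges were Dcn at 12727, 7181 and 9134, Pdgfra at 4733, 2173 and 1887, and Pdgfrb at 1287, 2548 and 2455. Muscle lineage genes were few. Of 13 skeletal and cardiac markers, 2 to 3 were above the array median, the regulators Myod1 and Myog being below it on all arrays, and the summed signal was 351 and 419 on the controls and 418 with the shRNA. Mylpf (68.8, 35.5 and 48.6) and the cardiac factor Nkx2-5 (112, 231 and 212) were the 2 tested.

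Most markers of other cell types were below the array median, but Fabp4, Lpl, Cspg4, Epcam, Krt5, Cd14 and Cd68 were above it on every array. Adipocyte markers summed to 985 and 749 on the controls and to 824 with the shRNA (2 to 3 of 6 above the array median), endothelial and pericyte markers to 376 and 347 and to 375 (1 to 2 of 9), epithelial markers to 295 and 284 and to 263 (2 to 3 of 7) and leukocyte markers to 753 and 664 and to 774 (2 of 5). The genes tested were Fabp4 (487, 334 and 440.4), Lpl (281, 399 and 319), Retn (183, 9.5 and 33.8), the pericyte proteoglycan Cspg4 (264, 231 and 228), Epcam (53.8, 122 and 107), Krt5 (50.2, 61.7 and 56.9), Krt8 (102, 16.2 and 78.1), Cd14 (569, 479.9 and 615) and Cd68 (142, 133 and 119.7). Endothelial Pecam1 and leukocyte Ptprc were near the floor on every array, at 2.3 to 3.5 and 4.4 to 15.2. None of these sums was lower on empty vector 1 than on both other arrays except that of the muscle lineage markers. In a sum chosen after seeing the data, the other 12 of these without Nkx2-5 gave 239.6 and 188 on the controls and 206 with the shRNA, highest on empty vector 1. Most of these 12 were below the array median on every array, so the order of such small sums is uncertain.

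The genes most like Tagln, the tested member with the widest range, were sought by the distance between log2 differences of empty vector 2 and RetSat shRNA from empty vector 1. The closest were Car6 (31.7, 137 and 179.8), Msln (164, 635 and 690.2), Efs (11.5, 64.4 and 72.5), Tfeb (21.8, 94.4 and 142) and En1 (160.3, 699 and 760.4), at distances of 0.09 to 0.21. In all, 21 genes lay within 0.5 of Tagln. No other member was among the closest 5, and with 3 arrays such likeness is a description only.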

How the data were processed

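The authors deposited a table of 45101 probe set intensities for 3 arrays, on a linear scale. The software and summarisation method were not given in the sources used here. Each array's 2% trimmed mean was 250, so the arrays had been scaled alike. Per the labels, total RNA was extracted with Trizol LS and biotin-labelled. The number of arrays limits the precision, and no detection calls were used.

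Symbols came from the platform annotation, looked up by gene ID in GRCm38.p6 (0 symbols changed). Of the probe sets, 34945 had exactly 1 symbol, 932 several and 9160 none, and 64 were controls. A gene's brightest probe set stood for it. An offset of 10.2 (the 25th percentile) was added before log2, and 10843 genes with a mean log2 signal at or above the median of all probe sets were fitted in limma 3.58.1 (R 4.3.3; lmFit, eBayes, two-sided, Benjamini-Hochberg over all genes), with code tested on simulated data. Of the members, 8 of 10 genes (15 of 21 probe sets) passed this filter. The members and gene lists were chosen with earlier results of these data known. Beside the members and Retsat, genes named by rule are the 3 brightest and 3 widest-ranging of each list and the 5 most like Tagln. Cofactors and defining markers were named for their role, and the other tested immediate early genes to complete their list. Both were named outside this rule, after their values were seen. 1 gene that this rule names is not reported here.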

Additional observations from a re-analysis of the deposited data

How the results depend on the processing

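Offsets of 1 and at the median, centring, quantile normalization, no filter, a filter at the 75th percentile, other treatments of probe sets and a robust variance prior left the count of members called by limma at 0 (the smallest adjusted p of a member in any of them was 0.99986). The 2-fold rule against both controls took no member in any setting with all 3 arrays. Leaving out a control gave 0 members (without empty vector 1) and 1 (without empty vector 2, Tagln). Between the controls that rule took 1 member, but 2 with no filter (Myl9 lower) and 0 with the filter at the 75th percentile, which leaves out Tagln. The difference of Acta2 from the empty-vector mean reversed to -0.19 with the mean of all probe sets, 2 of which are dim. On RetSat shRNA these 2 lay at -0.18 and -0.15 from empty vector 1 and at -0.19 and -1.23 from empty vector 2. Why the probe sets differ was not tested. Of all genes, 10 were higher and 54 lower by the 2-fold rule against both controls, and 22 and 88 with an offset of 1, 2 and 9 with the median offset, 386 and 414 with no filter, 0 and 1 with the strict filter, 13 and 30 with the mean of probe sets, and 29 and 182 with every probe set on its own. Between the controls 370 and 1011 became 176 and 861, 1508 and 1859, 154 and 497, 248 and 814, and 691 and 2270 with the last 5 of these. Limma called 1 gene with centred arrays and 7 with the robust prior, against 0. No paired analysis was possible because no label pairs the samples. Only empty vector 2 and RetSat shRNA share a number in their titles, the 2, whose meaning is not stated. Signal near the floor limits Cnn1, Myl9 and Tagln on empty vector 1.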
